A study of Mus musculus with 12 samples.

Results

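The genes described are 8 that serve red cell development or iron handling: Car1, Car2, Rhag, Ermap, Tfrc, Tfr2, Slc25a37 and Alas2. They were chosen by name, and a probe set was taken where the probe annotation paired it with that 1 symbol. This gave 11 probe sets for the 8 genes, of 34945 probe sets and 18193 genes with 1 symbol on the array. Of the 8 genes, 7 were tested among 10817 genes, and Alas2 was too dim to test. Alas2 was below 16 units on all but 1 array, and Slc25a37 differed in the opposite direction to the other 6 tested genes.

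RNA was measured on 12 Affymetrix mouse arrays, in 4 groups of 3 samples that the titles call biological replicates. Leukaemias were grown from hematopoietic stem and progenitor (KLS) cells of wild-type or Msi2 Gt/Gt donors, which were infected with oncogenes and transplanted. Msi2 encodes an RNA-binding protein, and the Gt allele is a gene trap. All 12 samples, wild-type ones included, carry the strain label B6;CB-Msi2Gt(pU-21T)2Imeg, and none was treated. The AML groups carried MLL-AF9, and their leukaemic stem cells were sorted as Lin-Sca1-ckit+. The groups with bcCML, blast crisis chronic myelogenous leukaemia, carried BCR-ABL with NUP98-HOXA9 and were sorted as Lin- cells, the label naming no other marker. The oncogenes and the gate thus differ together between the leukaemias and cannot be told apart. The labels used here do not give ages, the recipients or how many animals made a sample. Infected cells were transplanted, so the genotype is that of the donor cells.

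A developing red cell takes up transferrin-bound iron through the transferrin receptor, Tfrc, and brings it into mitochondria through mitoferrin 1, Slc25a37, where Alas2 starts haem synthesis. The related receptor Tfr2 senses transferrin iron and, in red cell precursors, binds the erythropoietin receptor. Carbonic anhydrases 1 and 2 interconvert carbon dioxide and bicarbonate in the red cell, Rhag is the Rh-associated glycoprotein of the red cell membrane, and Ermap is an erythroid membrane protein of the immunoglobulin superfamily that carries a blood group in humans. The transcription factor Gata1 drives many red cell genes. Tfrc, unlike most of these, is used by any dividing cell.

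Promoter sequences are shown because most of these genes move together between the leukaemias and GATA sites are a known feature of red cell promoters. The RefSeq windows of GRCm38.p6 used here, the 250 bases before each start, held 8 windows of 5 of the genes (Tfrc, Rhag, Ermap, Tfr2 and Alas2). The GATA motif searched was AGATAA. Also counted were AGATAG and the motif forms TGATAA and TGATAG, each on either strand. Such a motif stood in 4 of the 8 windows, and in 26.5% of all 32851 windows of this length. The 4 windows follow in the direction of the gene, with the motif in capitals. They are 1 window each of Rhag, Ermap and Alas2, and 1 of the 3 of Tfr2.
Rhag, chr17:40810899-40811148, plus strand: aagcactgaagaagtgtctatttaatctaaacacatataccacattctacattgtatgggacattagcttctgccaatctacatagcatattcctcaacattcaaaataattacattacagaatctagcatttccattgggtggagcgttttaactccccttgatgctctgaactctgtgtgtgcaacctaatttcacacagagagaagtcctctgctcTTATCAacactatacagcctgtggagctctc
Ermap, chr4:119189996-119190245, minus strand: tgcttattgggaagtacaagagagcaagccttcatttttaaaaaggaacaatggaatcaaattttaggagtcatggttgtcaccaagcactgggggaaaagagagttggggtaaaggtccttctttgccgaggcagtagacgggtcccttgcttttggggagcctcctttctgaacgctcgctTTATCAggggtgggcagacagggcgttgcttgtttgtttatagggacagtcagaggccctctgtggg
Tfr2, chr5:137570725-137570974, plus strand: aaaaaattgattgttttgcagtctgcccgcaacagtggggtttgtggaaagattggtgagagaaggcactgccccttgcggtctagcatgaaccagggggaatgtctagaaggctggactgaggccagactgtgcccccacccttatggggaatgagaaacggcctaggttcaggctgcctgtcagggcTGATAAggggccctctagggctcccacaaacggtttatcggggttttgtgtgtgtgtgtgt
Alas2, chrX:150547167-150547416, plus strand: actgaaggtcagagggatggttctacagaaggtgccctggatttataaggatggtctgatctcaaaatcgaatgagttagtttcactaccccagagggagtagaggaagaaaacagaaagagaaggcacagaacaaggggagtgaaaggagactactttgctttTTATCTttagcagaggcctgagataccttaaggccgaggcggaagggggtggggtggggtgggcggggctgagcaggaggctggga
The motif began 31 bases before the start of Rhag, 67 before that of Ermap, 61 before that of Tfr2 and 86 before that of Alas2. Both Tfrc windows and the other two Tfr2 windows held none of these letters. These are letter matches only, with no measurement of binding.

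Values are intensity units on a linear scale, where 4.49 is the lowest value and 16 units was the level taken as measurable. The array medians lay between 13.1 and 13.8 units, and between 48.4% and 48.8% of probe sets were above 16 units. The number of arrays limits the precision. Msi2 itself, which checks the labels, measured 181 to 430 units in wild-type and 52.9 to 86.9 in mutant AML, and 2583 to 4579 units in wild-type and 487 to 721 in mutant bcCML. The marker genes of other cell types differed strongly between the leukaemias. Monocyte and macrophage genes, 11 on the array, summed to 18458 to 74355 units on AML arrays and 1219 to 2262 on bcCML arrays, where Csf1r was near the lowest value. Neutrophil genes (10) summed to 115106 to 231547 units on AML arrays and 3859 to 34635 on bcCML arrays. Megakaryocyte genes (13) summed to 315 to 1313 units on AML arrays and 8277 to 23323 on bcCML arrays. Mast cell and basophil genes (9) summed to 1072 to 3632 and 5026 to 14599 units. Gzmb, on that list, had geometric means of 4.51 units in both AML groups and of 1659 and 4646 in wild-type and mutant bcCML. Between the mutant groups, 3 of the 6 tested genes of the list were higher in bcCML and 0 lower. Mcpt8 had geometric means of 945 units in mutant AML and 309 in mutant bcCML. In sorted bulk samples, fewer cells of a type and less RNA per cell cannot be told apart.

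The genes differed between the leukaemias in both genotypes. With limma and an adjusted p threshold of 0.05, 6 of the 7 tested genes were higher and 1 was lower in wild-type bcCML than in wild-type AML. Of all tested genes, 17.7% were higher and 19.3% lower, 36.9% in all. The mutant groups gave the same counts, 6 higher and 1 lower, against 23.2% and 21.9% of all genes, 45.1% in all. All 7 genes had arrays that did not overlap between the leukaemias, as did 52.4% of all genes among wild-type and 55.5% among mutant arrays. Car1, Rhag and Ermap were above 16 units only on bcCML arrays, so they entered the test only because they are high there and had to differ. The 4 that did not enter this way, Car2, Tfrc, Tfr2 and Slc25a37, also passed in both genotypes.

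**Figure D1:**
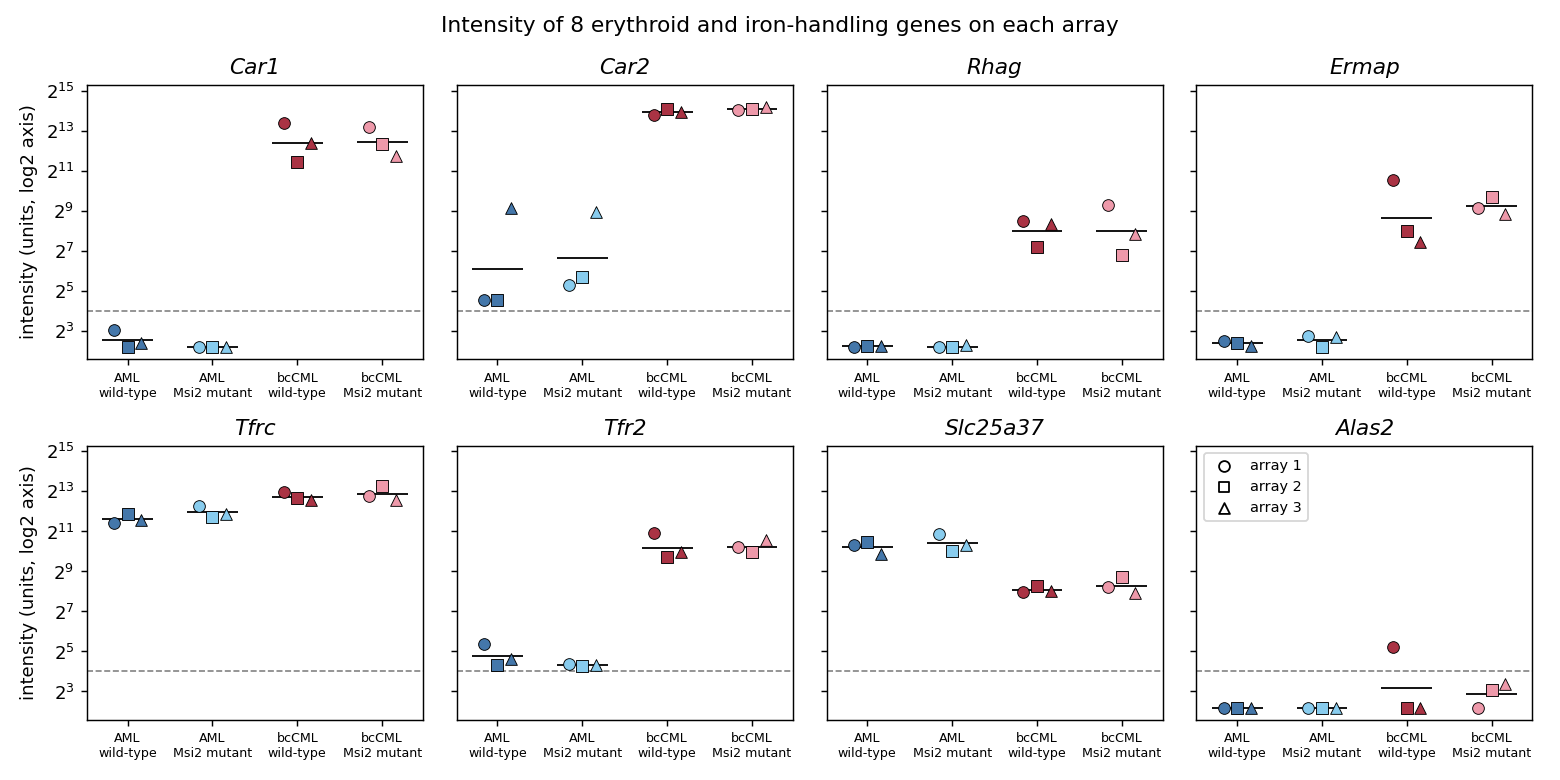
Intensity of the 8 genes on each array (log2 axis, units), with 1 panel per gene, the 4 groups along the x axis, the 3 arrays of a group as points and the geometric mean as a bar; the dashed line marks 16 units. Car1, Rhag and Ermap lie below the line on all AML arrays and above it on all bcCML arrays, Slc25a37 is lower in bcCML, and Alas2 rises above the line on 1 array.

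Car1 had the largest fitted difference of the 7. In AML it measured 8.31, 4.50 and 5.20 units in wild-type and 4.57, 4.51 and 4.62 in mutant cells, close to the lowest value of the arrays. In bcCML it measured 10848, 2728 and 5403 units in wild-type and 9266, 5193 and 3378 in mutant cells. All 6 bcCML arrays were high, and all 6 AML arrays were below the measurable level. Against 16 units, Car1 was at least 339-fold higher in wild-type bcCML and at least 341-fold higher in mutant bcCML. The limma adjusted p values, 2.03e-07 and 1.23e-07, belong to the fitted difference and not to this bound. Car1 entered the test only through bcCML and had to differ, so these p values support nothing.

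Car2 was bright on every bcCML array and differed widely among AML arrays. In AML it measured 23.4, 23.4 and 554 units in wild-type and 39.0, 52.1 and 483 in mutant cells. The bcCML arrays read 14337, 17179 and 15808 units in wild-type and 16928, 17389 and 18458 in mutant cells. Array 3 of each AML group stood well above the other two, while the 6 bcCML arrays lay close together and far above all AML arrays. The log2 difference was 7.87 ± 1.20 (SE; limma adjusted p = 0.000589) between wild-type and 7.47 ± 1.20 (limma adjusted p = 0.000616) between mutant groups. The 95% intervals were 5.21 to 10.53 and 4.80 to 10.13.

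The SD of Car2 within the AML groups, 2.33 on the log2 scale, was exceeded by 31 of 10817 genes (0.287%), and within the bcCML groups its SD of 0.103 was exceeded by 90.0% of genes. The 2 AML arrays numbered 3 lay 3.21 above all other AML arrays on the log2 scale. Car2 was the 1 gene of 10817 for which both stood more than 2 above all others. For the AML arrays numbered 1 there was no such gene, and for those numbered 2 there were 2 genes, Oas3 and Rsad2, both induced by interferon. This count was chosen after the values of Car2 were seen, and the numbers did not pair the AML arrays over all genes. The Msi2 difference of Car2 in AML was uncalled on leaving out any array, and its value turned with single arrays: 2.08 without AML wild-type array 3, -0.58 without mutant array 3, and -0.20 without wild-type array 1 or 2.

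Car1 and Car2 lie on chromosome 3, with Car13 and Car3, in the order Car13, Car1, Car3, Car2 and with no other protein-coding gene between them in the RefSeq table. All 4 were higher in bcCML in both genotypes, where 17.7% of all genes were higher between wild-type and 23.2% between mutant groups. Car1 and Car13 were above 16 units only on bcCML arrays and had to differ, so this bears only on Car2 and Car3. Car3 measured 39.2, 62.7 and 94.1 units in wild-type AML and 994, 1247 and 1485 in wild-type bcCML, a log2 difference of 4.32 ± 0.45 (SE; limma adjusted p = 4.68e-05). Of its other probe sets, 1 did not pass in wild-type cells (log2 difference 0.27, limma adjusted p = 0.325), and 2 did not pass in mutant cells (0.12 and 0.08). Car13 was below 16 units on all wild-type AML arrays and measured 107, 276 and 152 units in wild-type bcCML, at least 10.3-fold higher (limma adjusted p = 0.000237). Among all 6 tested carbonic anhydrases other than Car1 and Car2, 3 were higher and 1 lower in wild-type bcCML, with a median log2 difference of 2.76 against 0.00 over all genes. The third higher one was the mitochondrial enzyme Car5b, at least 10.7-fold higher (limma adjusted p = 3.76e-05), and the lower one was Car9, which hypoxia induces, by -0.99 ± 0.26 (SE; limma adjusted p = 0.0129). Of the 6, Car13 and Car5b were above 16 units only on bcCML arrays. They entered the test only through bcCML and had to differ, so the counts and the median support nothing. Of the other 4, 1 was higher and 1 lower in wild-type bcCML, with a median of 0.64.

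The membrane proteins Rhag and Ermap were at the lowest values in AML. Rhag measured 4.50, 4.78 and 4.78 units in wild-type and 4.52, 4.50 and 4.80 in mutant AML. In bcCML it measured 360, 143 and 320 units in wild-type and 615, 111 and 228 in mutant cells. The bcCML arrays differed several-fold among themselves, yet all stood above the AML arrays. Rhag was at least 15.9-fold higher in wild-type bcCML and at least 15.6-fold higher in mutant bcCML. Its fitted differences had limma adjusted p values of 1.96e-05 and 1.43e-05. Rhag entered the test only through bcCML and had to differ, so these p values support nothing.

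Ermap measured 5.67, 5.27 and 4.73 units in wild-type and 6.59, 4.63 and 6.43 in mutant AML. In bcCML it measured 1503, 249 and 171 units in wild-type and 567, 812 and 459 in mutant cells. Wild-type array 1 was the highest of the 6 and wild-type array 3 the lowest, so that all mutant arrays lay inside the wild-type range. Ermap was at least 25.0-fold higher in wild-type bcCML and at least 37.2-fold higher in mutant bcCML. The fitted differences had limma adjusted p values of 4.28e-05 and 1.97e-05. Ermap, too, entered the test only through bcCML and had to differ, so these p values support nothing. Its SD within the bcCML groups, 1.22 on the log2 scale, was exceeded by 245 genes (2.26%). Rhag (1.01, exceeded by 3.81% of genes) and Car1 (0.873, exceeded by 5.44%) also varied more than most genes there.

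Of the receptors, Tfrc was bright in all 4 groups. It measured 2741, 3786 and 3053 units in wild-type and 4952, 3425 and 3785 in mutant AML. On the bcCML arrays it measured 7948, 6599 and 6108 units in wild-type and 7102, 9756 and 6080 in mutant cells. Every bcCML array was above every AML array, by a margin far narrower than for Car1 or Car2. The log2 difference was 1.11 ± 0.22 (SE; limma adjusted p = 0.00284) between wild-type and 0.90 ± 0.22 (SE; limma adjusted p = 0.00712) between mutant groups.

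The other two Tfrc probe sets were dimmer and gave weaker calls. The brighter of them differed by 1.17 (log2; limma adjusted p = 0.0380) between wild-type groups and by 0.90 (limma adjusted p = 0.0848) between mutant groups. The dimmer one differed by 0.97 (limma adjusted p = 0.0750) and 0.42 (limma adjusted p = 0.406). On both, bcCML wild-type array 1 was the highest of all 12 arrays, at 1733 and 1181 units. The mean of the 3 Tfrc probe sets differed by 0.74 between mutant groups, which did not pass (limma adjusted p = 0.0705).

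Tfr2 was dim in AML and well measured in bcCML. On its brighter probe set it measured 41.2, 19.8 and 24.5 units in wild-type and 20.8, 19.1 and 19.8 in mutant AML. In bcCML it measured 1914, 844 and 1001 units in wild-type and 1183, 1003 and 1505 in mutant cells. No AML array came near the bcCML arrays. The log2 difference was 5.44 ± 0.33 (SE; limma adjusted p = 1.02e-06) between wild-type and 5.93 ± 0.33 (SE; limma adjusted p = 4.18e-07) between mutant groups. The dimmer probe set went the same way, with log2 differences of 6.65 and 7.72, and was below 16 units on 4 of the 6 AML arrays.

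Slc25a37 was the exception. It measured 1271, 1430 and 933 units in wild-type and 1874, 1028 and 1283 in mutant AML. Its bcCML values were 254, 311 and 258 units in wild-type and 298, 418 and 243 in mutant cells. Every AML array was above every bcCML array. The log2 difference, bcCML minus AML, was -2.13 ± 0.27 (SE; limma adjusted p = 0.000176) between wild-type and -2.12 ± 0.27 (SE; limma adjusted p = 0.000134) between mutant groups. Alas2, which joins glycine and succinyl-CoA in the mitochondria of red cell precursors, measured 4.51 to 4.53 units on all 6 AML arrays. In bcCML it measured 37.8, 4.52 and 4.53 units in wild-type and 4.51, 8.43 and 10.3 in mutant cells, above 16 units on wild-type array 1 alone, and it was not tested.

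**Figure D2:**
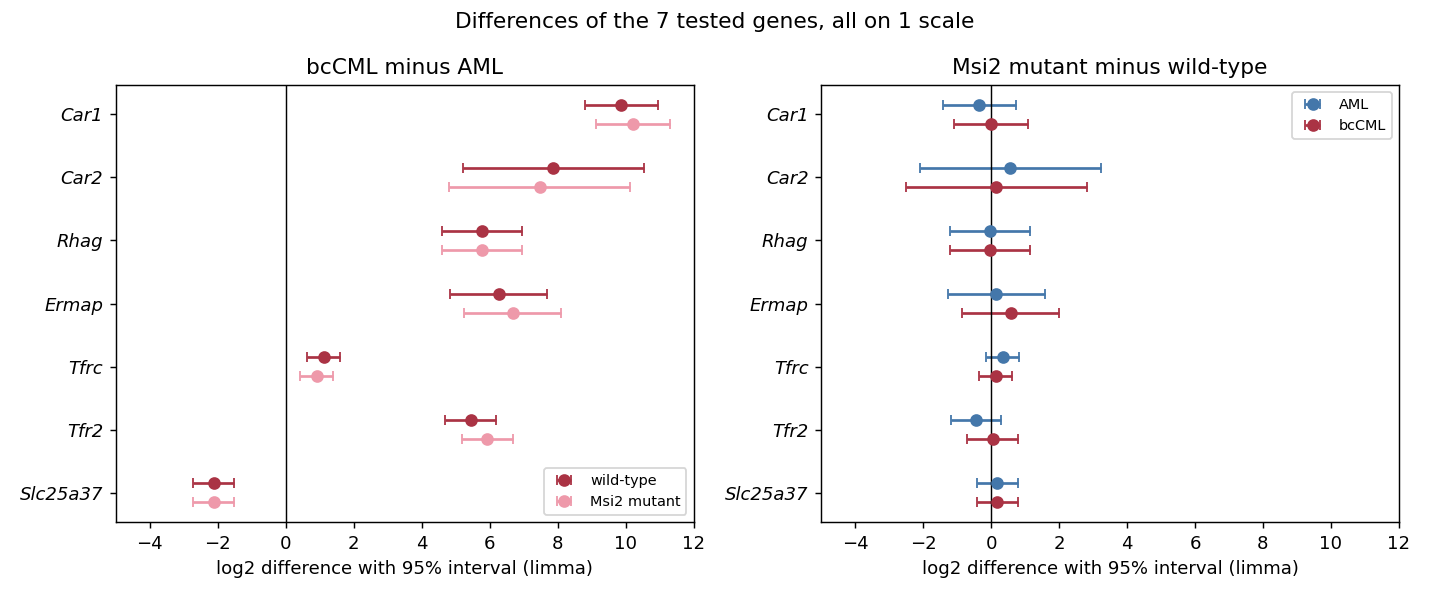
Log2 differences of the 7 tested genes with 95% intervals from limma, bcCML minus AML on the left (wild-type and mutant) and Msi2 mutant minus wild-type on the right (AML and bcCML), on 1 scale. On the left 6 genes lie above 0 and Slc25a37 below it, with Car1 at 9.87 and 10.22; for genes below 16 units in AML the fitted size is no measured fold. On the right every interval crosses 0, and that of Car2 is the widest.

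Loss of Msi2 was tested in each leukaemia. None of the 7 genes passed in AML, where 1.52% of all genes did, nor in bcCML, where 0.139% did. The mean effect over both leukaemias gave 0 of 7 (0.471% of all genes). The test of whether the effect differs between them also gave 0 of 7, with 0 of 10817 genes passing and 1014 at an unadjusted p under 0.05. No gene of the 7 had an unadjusted p under 0.05 in any of these 4 limma tests. In neither leukaemia did the mutant arrays of any of the 7 genes lie apart from the wild-type arrays, where 16.7% of all genes did so in AML and 15.9% in bcCML. Car1, Rhag and Ermap were below 16 units in both AML groups, so no Msi2 difference of theirs can be measured there. The AML counts, and the 2 tests that use the AML arrays with those of bcCML, thus bear only on Car2, Tfrc, Tfr2 and Slc25a37.

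The intervals show what these arrays leave possible. For Tfrc, the log2 difference, mutant minus wild-type, was 0.34 ± 0.22 (SE) in AML with an interval of -0.15 to 0.83 (limma adjusted p = 0.563), and 0.13 ± 0.22 in bcCML with an interval of -0.36 to 0.62. For Slc25a37 it was 0.18 ± 0.27 (-0.42 to 0.78) in AML and 0.19 ± 0.27 (-0.41 to 0.79) in bcCML. Tfr2 differed by -0.45 ± 0.33 (-1.19 to 0.29) in AML and 0.05 ± 0.33 (-0.69 to 0.79) in bcCML. These 3 have the narrowest intervals of the 7.

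Car2 differed by 0.56 ± 1.20 in AML, with an interval of -2.10 to 3.23, and by 0.16 ± 1.20 in bcCML. That SE is shared with the AML arrays, whose spread is far wider than that of the bcCML arrays. In bcCML, Car1 differed by 0.01 ± 0.49 (-1.08 to 1.09), Rhag by -0.03 ± 0.53 (-1.20 to 1.15) and Ermap by 0.58 ± 0.64 (-0.85 to 2.00). In AML these 3 were below 16 units in both groups, so no size is given. For Tfrc, Tfr2, Slc25a37 and Car2, which were measurable in all 4 groups, the levels were ordered by leukaemia, and no difference between genotypes within a leukaemia passed the test.

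The other genes of red cell and iron biology were described from 9 lists. In wild-type bcCML against wild-type AML, 12 of 18 tested red cell membrane and blood group genes were higher and 0 lower, with a median log2 difference of 3.26 against 0.00 over all genes. Abcg2, a transporter of haem and porphyrins, rose by 6.17 ± 0.28 (SE; limma adjusted p = 1.00e-07). Slc14a1, the urea transporter of the Kidd blood group, rose by 5.70 ± 0.63 (SE; limma adjusted p = 6.90e-05). The adhesion protein Icam4 was at least 13.01-fold and the transporter Abcb4 at least 62.4-fold higher. Other genes of the red cell membrane and its skeleton were not measurable: Epb42 and Trim10 stayed below 16 units on all 12 arrays, and Sptb was above it on 1. In mutant cells the counts were also 12 and 0, with a median of 3.26. Of the 18 tested genes, 7 were above 16 units only on bcCML arrays, Icam4 among them. They entered the test only through bcCML and had to differ, so the counts and medians describe the genes and support nothing. Of the other 11, 6 were higher and 0 lower in wild-type and 5 and 0 in mutant bcCML, with medians of 3.11 and 1.13. With dim genes at their bound, the medians of all 18 were 2.25 and 2.14.

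Of 20 tested erythroid regulators, 13 were higher and 3 lower in wild-type bcCML (median 1.003), and 12 and 3 in mutant bcCML. Gata1 was at least 70.8-fold higher, from 8.77 to 9.44 units on the wild-type AML arrays to 850 to 1445 units on the wild-type bcCML arrays (limma adjusted p = 9.38e-09). Tal1, its partner, was at least 90.6-fold and Klf1, an activator of adult globin genes, at least 25.9-fold higher. Epor, the erythropoietin receptor, was at least 11.8-fold higher (limma adjusted p = 6.65e-06). Lmo2, which bridges Gata1 and Tal1, was lower by -1.62 ± 0.13 (SE; limma adjusted p = 6.04e-06). Gata1, Tal1, Klf1 and Epor are among 5 regulators above 16 units only on bcCML arrays, which had to differ. Of the other 15, 8 were higher and 3 lower in wild-type bcCML and 7 and 3 in mutant bcCML. Of these regulators, Gata1 and Tal1 also act in megakaryocytes and mast cells, whose marker genes were high in bcCML too. Of 11 tested megakaryocyte genes, 9 were higher and 0 lower in wild-type bcCML, 4 of them above 16 units only there, and of 6 mast cell and basophil genes 4 were higher and 0 lower, 2 of them above 16 units only there. Of the genes that did not enter this way, 5 of 7 and 2 of 4 were higher in wild-type bcCML, and 4 of 7 and 1 of 4 in mutant bcCML. Their part in the results was not tested.

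Haem and iron genes lay in both directions, and their counts are to be read against the 17.7% of all genes that were higher and the 19.3% that were lower in wild-type bcCML. Of 13 tested haem synthesis genes, 3 were higher and 1 lower in wild-type bcCML, with a median of 0.14. Cpox rose by 2.82 ± 0.35, Alad by 1.90 ± 0.40 and Urod by 0.60 ± 0.15, all enzymes of the middle of the pathway, and the housekeeping first enzyme Alas1 fell by 2.47 ± 0.24 (SE; limma adjusted p = 3.09e-05). In mutant bcCML 5 were higher and 1 lower, where 23.2% of all genes were higher and 21.9% lower. Of 8 haem breakdown and transport genes, 1 was higher and 2 lower in wild-type bcCML, and 2 and 3 in mutant bcCML. In wild-type bcCML the lower ones were the haem oxygenases Hmox1, by -3.88 ± 1.08 (limma adjusted p = 0.0177), and Hmox2, by -1.28 ± 0.33. The Hmox1 call ended when wild-type array 1 of either leukaemia, or array 3 of bcCML, was left out (limma adjusted p from 0.0525 to 0.0692).

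Of 16 tested genes of iron uptake, storage and export, 1 was higher and 3 lower in wild-type bcCML (median 0.15), and 6 and 5 in mutant bcCML. Slc40a1, the iron exporter ferroportin, fell by 3.66 ± 0.59 (SE; limma adjusted p = 0.000892), from 435 to 620 units to 22.1 to 116 units. Hfe, which binds Tfrc at the cell surface, fell by 3.62 ± 0.83 (limma adjusted p = 0.00672). It did not pass on its other probe set (-1.61, limma adjusted p = 0.293) or in the mean of both (-2.61, limma adjusted p = 0.0522). Lcn2, a carrier of iron-binding siderophores that neutrophils make, fell by 2.60 ± 0.71 (limma adjusted p = 0.0157). That call ended when wild-type array 3 of AML (limma adjusted p = 0.0549) or of bcCML (limma adjusted p = 0.0627) was left out. Macrophages express Slc40a1 and Hmox1, and the monocyte and neutrophil marker genes were lower in bcCML too, 9 of 11 and 8 of 10 in wild-type cells. Their part was not tested. The higher gene, the metal transporter Slc39a8, rose by 1.15 ± 0.36 (limma adjusted p = 0.0316) and did not pass when wild-type array 2 or 3 of AML, or 1 or 2 of bcCML, was left out (limma adjusted p from 0.0576 to 0.105). Nor did it pass with array weights (0.51, limma adjusted p = 0.157), without the filter (limma adjusted p = 0.0724) or with the compared groups alone (limma adjusted p = 0.0562).

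Of 8 tested iron sensing genes, 3 were lower and 1 higher in wild-type bcCML (median -0.28), and 3 and 0 in mutant bcCML. The higher one was the BMP receptor Bmpr1a, by 0.92 ± 0.33 (SE; limma adjusted p = 0.0483), a call that 15 of 25 alternatives ended (limma adjusted p up to 0.291). Bach1, the haem-sensing repressor, fell by 1.502 ± 0.29 (SE; limma adjusted p = 0.00256), and Zfp36, an mRNA decay factor, fell by 2.70 ± 0.63 (limma adjusted p = 0.00702). The iron regulatory genes Ireb2 and Aco1, whose proteins bind and stabilise Tfrc mRNA, differed by -0.27 ± 0.19 and 0.33 ± 0.26 and did not pass. Of 16 tested iron-sulfur cluster genes, 8 were higher and 0 lower in wild-type bcCML (median 0.29), and 8 and 1 in mutant bcCML. Among those higher in wild-type bcCML were Glrx5, by 1.01 ± 0.15 (limma adjusted p = 0.000444), and the chaperone Hspa9, by 0.77 ± 0.12 (limma adjusted p = 0.000759). Only 2 globin genes were tested. Hbb-b2 rose by 3.85 ± 0.83 (limma adjusted p = 0.00485), from 34.8 to 132 units to 655 to 1437 units, and Hba-a2 differed by -0.42 ± 0.15 (limma adjusted p = 0.0512), with 2219 to 4457 units over all 12 arrays. Between the mutant groups Hba-a2 fell by 0.79 ± 0.15 (limma adjusted p = 0.00189). Globin copies are near-identical, so their signals may be shared. The other 4 globins on the array, Hba-a1 among them, were below 16 units on every array, unlike Hba-a2. What the Hba-a2 probe set measures was not tested.

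**Figure D3:**
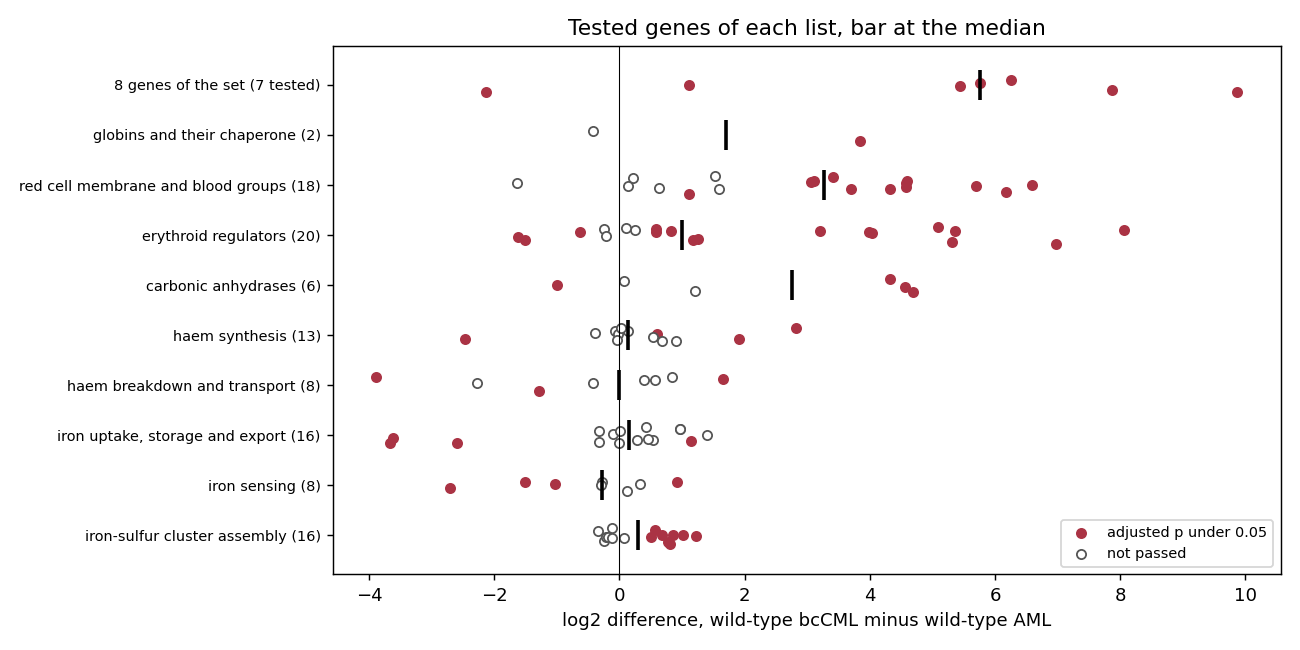
Log2 difference of wild-type bcCML minus wild-type AML for each tested gene of the set and of the 9 lists, filled where the limma adjusted p was under 0.05, with a bar at the median. Red cell membrane genes (median 3.26, with 7 of 18 above 16 units only in bcCML) and carbonic anhydrases (2.76, with 2 of 6) lie mostly to the right, while haem synthesis (0.14), haem breakdown (-0.01) and iron uptake, storage and export (0.15) spread to both sides.

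Loss of Msi2 moved 1 of the 107 tested genes of the 9 lists past the threshold in AML, 0.935% against 1.52% of all genes. Abcg2 rose in mutant AML, from 48.9, 41.3 and 27.5 units in wild-type to 124, 137 and 67.5 in mutant cells, a log2 difference of 1.45 ± 0.28 (SE; limma adjusted p = 0.0373). All 3 mutant arrays were above all 3 wild-type arrays. The call lies near the threshold: it held on leaving out AML mutant array 3 (limma adjusted p = 0.0115) and ended on leaving out any 1 of the other 11 arrays (from 0.0542 to 0.0940), and it ended in a fit of the AML arrays alone (0.251). In bcCML, no gene of the 9 lists passed in limma, while 9 of their 107 tested genes had an unadjusted p under 0.05, 8.41% against 8.32% of all genes.

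Profiles over the 12 arrays were compared by the root mean square difference between log2 values centred on each gene's mean, smaller meaning more alike. Nearest to Car1 were Pf4 (0.52), the platelet chemokine, Pdcd1 (0.62), the immune checkpoint receptor PD-1, and Rab38 (0.72), where the median over all genes was 5.05. Pf4 measured 5558, 2930 and 6666 units in wild-type bcCML, with array 2 the lowest, as for Car1. In mutant bcCML it measured 8670, 3240 and 5545 units, again with array 2 the lowest, whereas Car1 was lowest on mutant array 3. Nearest to Ermap was Pklr (0.37), which encodes the pyruvate kinase of red cells and liver, followed by Bex4 (0.71) and Adamts20 (0.72), with a median of 3.33 over all genes. Pklr measured 1572, 446 and 186 units in wild-type and 622, 1531 and 998 in mutant bcCML. Its wild-type arrays had the same order as those of Ermap, and in mutant cells array 2 was the highest for both.

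Nearest to Rhag were Nlrp6 (0.35), P3h2 (0.38) and Rec8 (0.39), and nearest to Tfr2 were Epdr1 (0.36), Nckap1 (0.39) and Orly (0.42), with medians over all genes of 2.95 and 2.88. Car2 had no close neighbour: the nearest, Hoxc4, Tox and Hoxb5, stood at 1.10, 1.10 and 1.18, where the median was 4.08. Tfrc was nearest to Aff4 (0.18), Ssbp3 (0.22) and Hdac7 (0.23), and its median over all genes was 0.71. Slc25a37 was nearest to Pgd (0.25), an enzyme of the pentose phosphate pathway, Baz1a (0.27) and Dctn1 (0.29), with a median of 1.17. Across all of these, the points share the 12 arrays and the same 4 groups, so a step of like size between the leukaemias by itself brings genes near.

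Within bcCML the arrays differed in a way the genotype did not follow. Wild-type array 1 was the highest of the 6 bcCML arrays for Car1, Ermap and Tfr2, and for Alas2. It was also the highest for 11 of 18 red cell membrane genes (61.1%) and 9 of 13 haem synthesis genes (69.2%), against 25.8% of all 10435 genes above 16 units in bcCML. Some lists outside the red cell did likewise: it was the highest for 5 of 9 neutrophil genes, 4 of 8 iron sensing genes and 7 of 16 iron-sulfur cluster genes. Others did not: it was the highest for 4 of 20 erythroid regulators, 1 of 11 megakaryocyte genes and 0 of 7 monocyte and macrophage genes. Wild-type array 1 was also the lowest of the 6 for 25.6% of all genes. Slc4a1, the anion exchanger of the red cell, measured 1141, 53.9 and 33.7 units in wild-type and 135, 515 and 683 in mutant bcCML. Kel, which carries a blood group, measured 352, 50.9 and 81.5 units in wild-type and 195, 94.7 and 126 in mutant cells. Wild-type array 2 was the lowest for 11 of the 18 red cell membrane genes (61.1%), against 10.1% of all genes, and for Car1 and Tfr2. Without bcCML wild-type array 1, all 7 genes still passed between the wild-type leukaemias. Car1, Rhag and Ermap entered the test only through bcCML and had to differ, so this bears only on Car2, Tfrc, Tfr2 and Slc25a37.

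**Figure D4:**
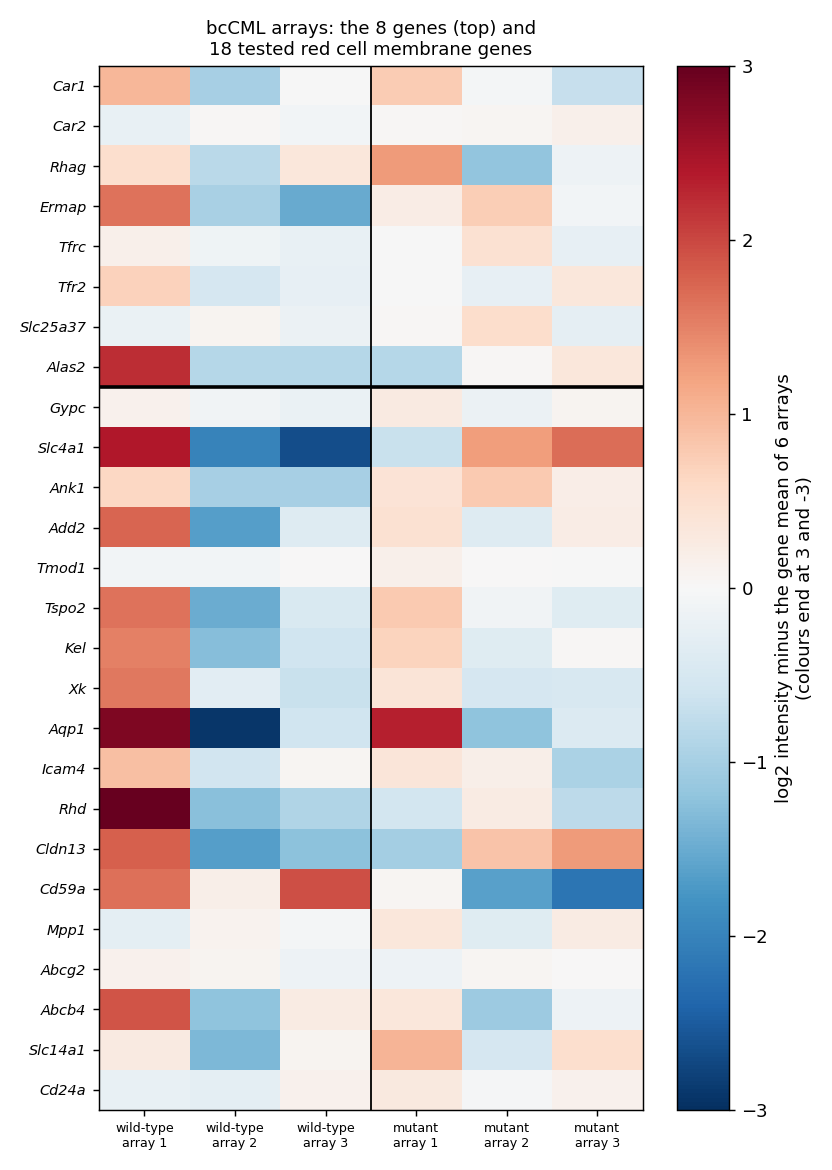
Log2 intensity minus each gene's mean over the 6 bcCML arrays (colour, ending at 3 and -3), for the 8 genes above the line and 18 tested red cell membrane genes below it, wild-type arrays on the left and mutant arrays on the right. Wild-type array 1 is the highest for 11 of the 18 membrane genes and wild-type array 2 the lowest for 11, while Car2 is nearly level.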

How the data were processed

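The authors' deposited values are linear intensity per probe set. The submitters' processing notes name GCRMA, whose version is not given in the sources used here. It corrects background, normalises between arrays and summarises probes, and its floor (4.49 units) compresses differences of dim genes.

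All 12 arrays entered 1 fit of log2 intensity (limma 3.58.1, R 4.3.3), with 8 residual and 2.19 prior degrees of freedom. Probe sets above 16 units on at least 3 arrays were kept, and the brightest per symbol stood for a gene. Tests were two-sided, with Benjamini-Hochberg adjustment over 10817 genes at 0.05. Where a group's 3 arrays were all below 16 units, the fold is a bound: the mean log2 of the brighter group against 16 units. The fit was tested on simulated data.

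Named were all 8 genes, Msi2, at most 4 genes a list (smallest p in a comparison) and the 3 genes nearest each profile. Other named genes were chosen after their values were seen: Slc4a1, Kel, Epb42, Trim10, Sptb, Epor, Aco1, Ireb2, Hba-a1, Oas3, Rsad2, Fos, Jun, Fosb, Aqp1, Cd74, H2-Aa, Csf1r, Gzmb, Mcpt8 and Fth1. Genes and lists were chosen with earlier results of these data known.

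Correlations between replicates were 0.978 to 0.992. Same-numbered mutant and wild-type bcCML arrays deviated together (0.396, 0.364 and 0.278), and AML arrays did not (-0.055, -0.121 and -0.030). Same-numbered AML and bcCML arrays gave 0.016, 0.235 and 0.111 in wild-type and 0.036, -0.024 and -0.076 in mutant cells. By this check, from the data and not a stated design, the bcCML numbers may pair arrays. The fit has no replicate term, and a replicate block was an alternative. Alternatives covered the filter, pseudocount, probe set, normalisation, eBayes settings, array weights, replicate block, arrays fitted and each array left out. They were planned for the 8 genes. Their use for counts over all genes and for the other named genes, and the list counts without genes above 16 units only in bcCML, were chosen after seeing the data.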

Additional observations from a re-analysis of the deposited data

How the results depend on the processing

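The count of the 8 genes past the threshold was 0 for the 4 Msi2 comparisons in every alternative run, and 7 between wild-type and 7 between mutant leukaemias, except 6 between mutant groups with the mean of probe sets, where Tfrc was lost. With each array left out, these counts stayed at 0 and 7. With the replicate block they were 0 and 7 as well, and the replicate block changed no call of the 7 genes. Of the 7, Car1, Rhag and Ermap were above 16 units only on bcCML arrays and had to differ between the leukaemias. The counts of 7 and 6 thus bear only on Car2, Tfrc, Tfr2 and Slc25a37. Of 942 recomputed differences of the 7 genes, 884 kept direction and call, 54 were uncalled values that changed sign, and 4 lost the call, all for Tfrc by another choice of probe set. The wild-type difference of Ermap ranged from 4.31 to 6.88 and that of Car2 from 7.11 to 9.39. Of 1557 recomputed differences of other named genes, a set chosen after seeing the data, 1471 kept direction and call, 73 lost and 13 gained the call, and none reversed. Counts over all genes, also recomputed after seeing the data, moved more. In AML 164 genes passed, against 105 without the filter, 0 with the AML arrays alone, 1053 with array weights, and 43 to 182 with 1 array left out. In bcCML it was 15, against 0 to 71 over the alternatives and 7 to 22 with 1 array left out. For the mean effect it was 51, against 22 to 750 and 4 to 122, and for the difference of effects 0, against 0 to 126 and 0 to 21. Between wild-type leukaemias 3996 passed, against 6511 when each probe set was counted and 6122 with array weights, and between mutant ones 4875, against 8248 when each probe set was counted. The cause was not tested. Values near the floor limit Car1, Rhag, Ermap and Alas2 in AML, where no Msi2 difference can be measured.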

Other observations

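Beside the red cell genes, some early response genes differed between bcCML arrays by replicate number. Fos measured 5620, 188 and 32.7 units in wild-type and 2026, 38.1 and 35.1 in mutant bcCML, and Jun measured 916, 83.3 and 24.8 units and 1146, 38.6 and 38.1. Aqp1, the water channel of red cells and vessels, measured 914, 17.4 and 87.7 units and 663, 57.0 and 99.4. With Fosb, these were the 4 genes for which both arrays numbered 1 stood more than 2 above all other bcCML arrays on the log2 scale, and 15 genes stood as far below, Cd74 and H2-Aa among them. They were chosen after their values were seen.

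In AML, 15 of 16 tested iron-sulfur cluster genes had lower means in mutant cells, as did 57.1% of all genes, with a median log2 difference of -0.35 against -0.05 over all genes. None passed in limma, and 6 of the 16 had an unadjusted p under 0.05, as did 14.2% of all genes. Bola3, an assembly factor, differed by -0.73 ± 0.17 (SE; limma adjusted p = 0.0750), and Hscb, a co-chaperone, by -0.88 ± 0.27 (limma adjusted p = 0.160). The 17 iron-sulfur cluster genes on the array summed to 23101 to 24886 units in wild-type AML. In mutant AML they summed to 23736, 19996 and 20051 units, so mutant array 1 lay inside the wild-type range. Apart from this list, AML mutant array 1 was low in monocyte genes, with a sum of 18458 units, and measured 4505 units of the ferritin gene Fth1, where the other 5 AML arrays measured 9163 to 12060.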
